A study of Phaseolus vulgaris with 21 samples.

Results

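Genes of fatty acid, wax and lipid metabolism were described in nectaries and leaves of a green bean, Phaseolus vulgaris cv Blue Lake 274. The members are the rows of the expression table whose first Arabidopsis description names a fatty acid, a ketoacyl or acyl carrier step, an acyl-CoA, a desaturase, a GDSL protein or a lipase. The rule used descriptions and no measured value, and it found 65 of 6359 rows, which carry 64 gene symbols. All 65 had a mean of at least 1 and were tested. Each row is a soybean transcript on which the authors counted bean reads, so a name given here is that of the soybean match, and close copies of a gene may have shared or split reads.

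RNA-seq was run on 7 tissues with 3 libraries each. Floral nectaries (FN) came from 4 stages. Flower opening (anthesis) was 24 h away at pre1 and 12 h away at pre2, the secretory nectaries came from open flowers 3 h into the day, and post nectaries were sampled 12 h later than these. Extrafloral nectaries (EFN) came from the stem where lateral trifoliate leaves join it (stem EFN) and from the base of terminal trifoliate leaves (leaf EFN), and leaf was the other tissue. All plants were of 1 cultivar, with no treatment named, grown at 23 °C under days of 16 h and nights of 8 h. Nectaries were cut out by hand, and the labels do not say whether the libraries of a tissue came from separate plants, so the p-values measure only the spread between libraries, which may be technical. The labels name no sampling hour for leaf or EFN, so hour and tissue cannot be told apart in comparisons with them.

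Fatty acids are built in the plastid on acyl carrier protein, by condensing enzymes called ketoacyl synthases, and the first double bond is added there by a stearoyl desaturase. Membrane desaturases of the endoplasmic reticulum and plastid add the next double bonds, which turn oleic acid into linoleic and then linolenic acid. Elongases lengthen the chains for cuticular wax, lipases release them from oil and membranes, and peroxisomes break them down by beta-oxidation. Linolenic acid is also the starting point of jasmonate, a hormone that takes part in nectar secretion in several plants.

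The descriptions bring in rows outside lipid metabolism. Of the 65 members, 9 are described as acyl-CoA N-acyltransferases, a superfamily that acetylates proteins and other substrates and includes the DNA methylation regulator IDM1, and 2 are carotenoid desaturases. LOC100796574, whose soybean description is a CSC1-like channel protein, entered only through its Arabidopsis description. Few members belong to wax synthesis itself: the set holds 2 ketoacyl-CoA synthases and 1 ketoacyl reductase of the elongase.

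Values are the authors' upper-quartile normalized read counts, rounded to whole numbers, and they are not divided by transcript length, so levels are compared only within a gene. The values of a library added up to between 2616502 and 4270943. Member means over the 7 tissues ran from 14.3 to 2137, with a median of 211, against 192 over the 6351 rows tested, and 53 members had a mean of at least 100. A single member value was 0. Changes are log2 fold changes of the value + 1, tested with limma in 1 fit to all 21 libraries. Adjusted p-values follow Benjamini and Hochberg over every row tested, and an adjusted p under 0.05 was called. These are bulk samples, so fewer cells of a type and less RNA per cell cannot be told apart.

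As a set, the members were called about as often as other rows in most comparisons. In floral against extrafloral nectaries, 31 members were higher and 23 lower, that is 47.7% and 35.4%, against 46.8% and 32.4% of all rows tested (79.2% in either direction). In floral nectaries against leaf, 29 were higher and 17 lower, or 44.6% and 26.2%, against 48% and 27.8% of all rows (75.8% in either direction). The extrafloral nectaries of both sites against leaf gave 26 higher and 13 lower members, or 40% and 20%, against 28.9% and 18.5% of all rows (47.4% in either direction), with a median log2 fold change of 0.42 over members and 0.13 over all rows. The 7 nectary and floral identity rows summed to 17, 35 and 33 in stem EFN and 8, 2 and 30 in leaf EFN, against 1 to 8 in leaf. Without stem EFN libraries 2 and 3, the highest of these and left out by a choice made after seeing the data, 18 members were higher and 12 lower than in leaf. With values rescaled by median ratios, 53.8% of all called rows were higher in floral nectaries than in leaf, in place of 63.4%, and 50.8% were higher in extrafloral nectaries than in leaf, in place of 61.1%.

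Among the 4 floral stages, 40 of 65 members differed in the F test, or 61.5%, against 57% of all rows. Stages at the same clock hour were compared to keep the hour out of the contrast. The secretory stage had 15 members higher and 20 lower than pre1, or 23.1% and 30.8%, against 25.2% and 20.7% of all rows (45.9% in either direction). The post stage had 11 higher and 11 lower than pre2, or 16.9% each, against 18.1% and 20.1% of all rows (38.2% in either direction). Between post and the secretory stage, 12 h apart, 2 members were higher and 0 lower (3.08% higher, against 2.63% higher, 3.1% lower and 5.73% in either direction of all rows). The stem EFN had 5 members higher and 0 lower than the leaf EFN, or 7.69% higher, against 2.8% higher, 2.57% lower and 5.37% in either direction of all rows.

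**Figure D1:**
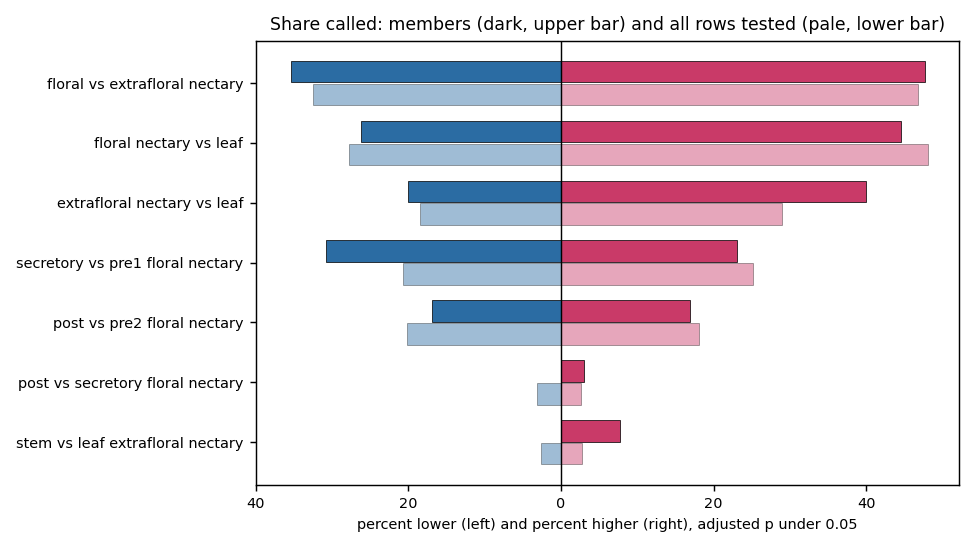
Percent of members (dark, upper bar) and of all 6351 rows tested (pale, lower bar) that were higher (right) or lower (left) at an adjusted p under 0.05 in 7 comparisons, the group named first over the second. Member and table-wide bars lie within a few points of each other in floral against leaf and floral against extrafloral nectaries, and differ most for members higher in extrafloral nectary than in leaf (40% against 28.9%) and lower at secretory than at pre1 (30.8% against 20.7%).

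Added over all members, their values made up 0.815 to 0.943% of a library at post, more than in any other library, where the share ran from 0.572 to 0.764%. Without the desaturase FAD3-2b the post share was 0.685 to 0.758%, which overlaps pre1 at 0.665 to 0.745%. By the tissue of highest mean, 38 members peaked at a floral stage, 19 in an extrafloral nectary and 8 in leaf, or 58.5%, 29.2% and 12.3%. Over all rows tested these shares were 60.8%, 21.2% and 18.0%. The 38 floral peaks were 14 at pre1, 4 at pre2, 6 at the secretory stage and 14 at post.

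**Figure D2:**
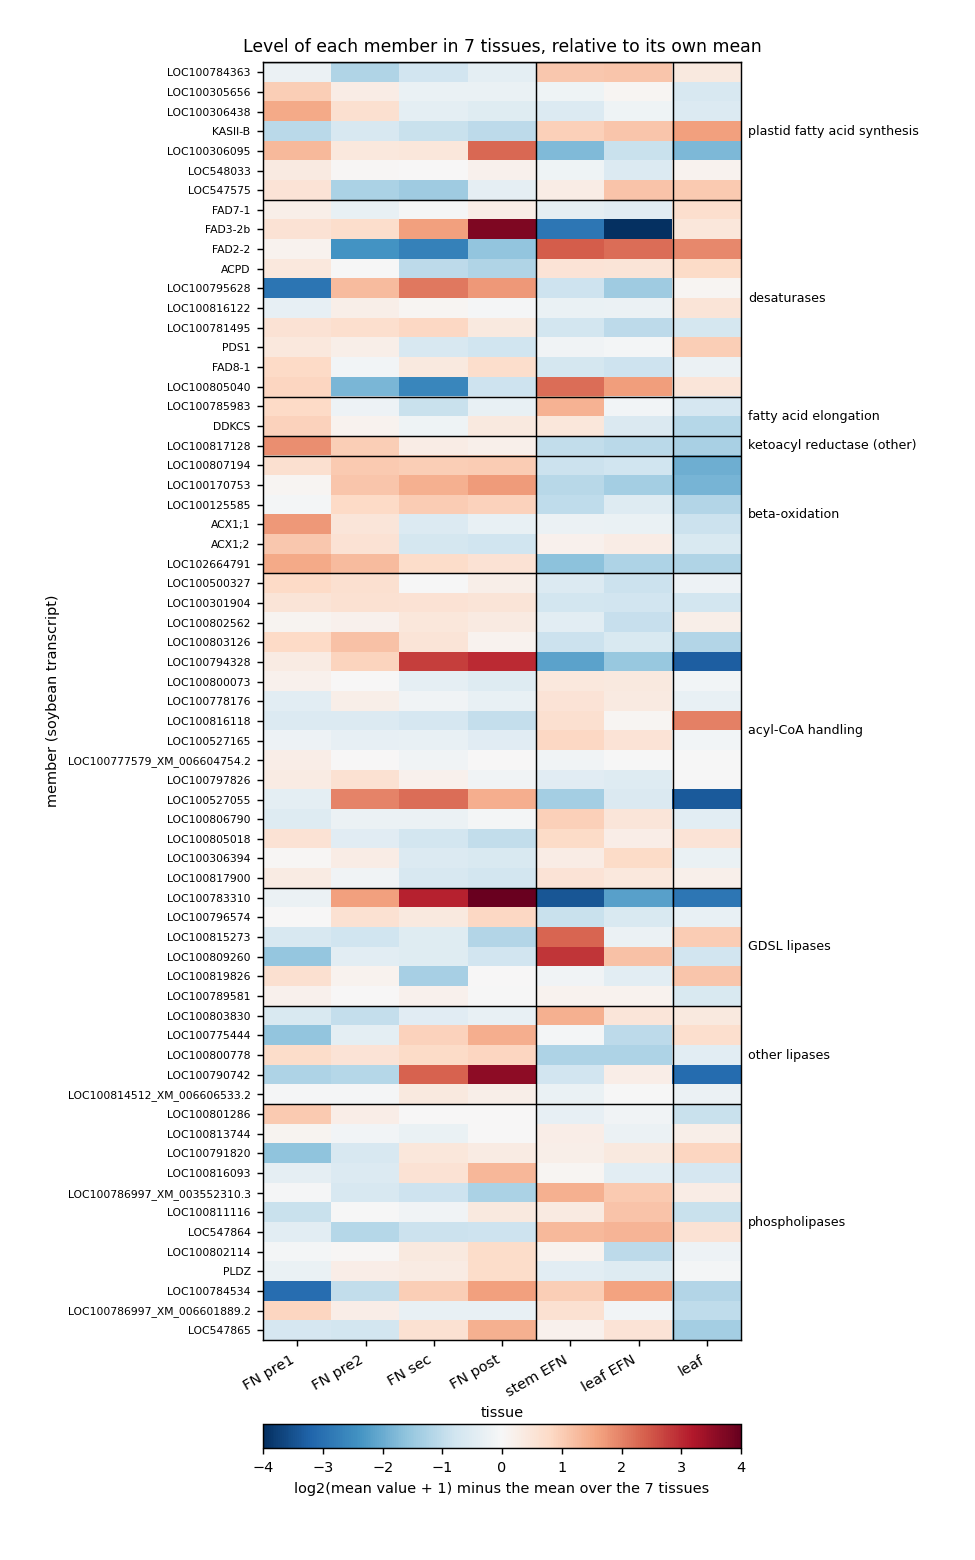
Level of each of the 65 members in the 7 tissues (columns), as log2(mean value + 1) minus that member's mean over the tissues, n = 3 libraries a tissue, with members grouped by role. Red is above and blue below a member's own mean. FAD3-2b, LOC100783310 and LOC100790742 are red at post, FAD2-2 is red in both extrafloral nectaries and leaf and blue from pre2 on, and the 6 beta-oxidation rows are blue in leaf.

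In plastid fatty acid synthesis, rows passed in both directions in floral nectaries against leaf. The class holds 7 rows, of which 3 were higher and 3 lower, against 48% and 27.8% of all rows, but 2 of the 3 higher rows are mitochondrial acyl carrier proteins. Among the 5 plastid rows, 1 was higher (LOC100306095) and 3 lower (KASII-B, LOC100784363 and LOC547575). Of the called rows of the class, only KASII-B and LOC100306095 did not overlap leaf, against 2886 of all 6351 rows tested. The change of LOC547575, which is outside the naming rule and is given only because it was called, was -1.67, and -1.07 with a pseudocount of 10. KASII-B, the ketoacyl synthase that makes stearic acid from palmitic acid, had 120, 109 and 155 at pre1, 152, 170 and 199 at pre2, 136, 157 and 148 at the secretory stage and 142, 146 and 111 at post. In stem EFN it had 535, 527 and 535 and in leaf EFN 546, 587 and 629, against 968, 857 and 721 in leaf. Every floral library was below every extrafloral library, and these in turn were below every leaf library. KASII-B fell by 2.55 in floral nectaries against leaf (SE 0.128, adjusted p = 9.49e-13), fell by 1.95 against extrafloral nectaries (adjusted p = 8.64e-13), and fell by 0.59 in extrafloral nectaries against leaf (adjusted p = 0.00198).

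Acyl carrier proteins, which hold the growing chain, took different courses. The plastid form LOC100784363 had 668, 307 and 276 at pre1, 218, 212 and 210 at pre2, 297, 268 and 294 at the secretory stage and 317, 387 and 428 at post. It had 767, 1094 and 1214 in stem EFN and 1236, 1233 and 724 in leaf EFN, against 474, 707 and 757 in leaf. All floral libraries were below all extrafloral ones, and the fold change was -1.73 (SE 0.172, adjusted p = 1.81e-08). Its rise over leaf in extrafloral nectaries (0.69, adjusted p = 0.0262) was lost without any 1 of leaf EFN libraries 1 and 2, stem EFN library 3 and leaf library 1 (adjusted p from 0.0529 to 0.172), with values rescaled by median ratios (0.0535) and without stem EFN libraries 2 and 3 together (0.18). A further row with the same first Arabidopsis match, LOC100306095, went the other way. It had 268, 258 and 290 at pre1, 157, 125 and 167 at pre2, 186, 141 and 133 at the secretory stage and 447, 635 and 565 at post. It had 18, 61 and 17 in stem EFN and 39, 51 and 89 in leaf EFN, against 70, 1 and 22 in leaf. Its floral libraries were all above the others (4.02 against leaf, SE 0.619, adjusted p = 8.17e-06). That value was 5.15 without leaf library 1 and 2.58 without leaf library 2, and the differences among floral stages did not pass (adjusted p = 0.13).

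The mitochondrial acyl carrier proteins, which feed lipoic acid synthesis, were highest at pre1. LOC100306438 averaged 910 ± 110 at pre1, 501 ± 63.8 at pre2, 244 ± 57.8 at the secretory stage and 226 ± 72.1 at post, and fell by 1.91 at the secretory stage against pre1 (SE 0.277, adjusted p = 1.84e-05). LOC100305656 fell by 1.23 in the same comparison (adjusted p = 0.00079). In both genes every secretory library was below every pre1 library. LOC548033, a synthase of the KASIII type that starts the chain and was chosen after its values were seen, did not pass in floral nectaries against leaf (0.02, adjusted p = 0.935), with a mean of 165 ± 32.5 at pre1 and 143 ± 10.5 at post against 140 ± 16.7 in leaf.

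A wider list of plastid synthesis genes, matched by Arabidopsis locus, held 11 rows that are no members. Of these, 4 were higher and 4 lower in floral nectaries against leaf, against 48% and 27.8% of all rows. Their median log2 fold change was 0.14, against 0.38 over all rows. ACCB-1, the biotin carrier subunit of acetyl-CoA carboxylase that supplies malonyl units, averaged 42 ± 20.9 at pre1, 23.7 ± 6.66 at pre2, 23.7 ± 3.21 at the secretory stage and 15.7 ± 5.03 at post, against 238 ± 26 in leaf (-3.26, SE 0.237, adjusted p = 2.39e-10). FAT1, a thioesterase of the FATB type that releases saturated acids from the plastid, was higher in floral nectaries (2.22, adjusted p = 2.67e-08). At the secretory stage against pre1, 6 of the 11 were lower and 1 higher, against 20.7% and 25.2% of all rows. Their median was -0.71 against 0.00 over all rows. Leaf and the extrafloral nectaries also differed from floral nectaries in chloroplast transcripts: the 11 photosystem and antenna rows summed to 261 to 693 in floral libraries and 67896 to 80185 in stem EFN. They summed to 15477 to 23760 in leaf EFN and 116836 to 295199 in leaf. Their part in the differences of plastid genes was not tested.

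Desaturases took separate courses: 1 of 10 was higher and 5 lower in extrafloral nectaries against leaf, against 28.9% and 18.5% of all rows. In floral nectaries against leaf 2 were higher and 6 lower, against 48% and 27.8% of all rows. FAD3-2b was 4.36-fold higher at post than at the secretory stage and had 21 to 93 units in extrafloral nectaries, while FAD2-2, which makes the substrate of omega-3 desaturases, was low in floral nectaries and high in extrafloral nectaries and leaf. FAD3-2b is described in soybean as a microsomal omega-3 desaturase, which makes linolenic acid, although its first Arabidopsis match is the plastid enzyme FAD7. It had 663, 521 and 757 at pre1, 639, 846 and 660 at pre2, 1139, 1168 and 1794 at the secretory stage and 5028, 6730 and 5851 at post. In stem EFN it had 35, 45 and 93 and in leaf EFN 23, 21 and 25, against 545, 937 and 302 in leaf. The post libraries were above all others, every extrafloral library was below every other library, and leaf overlapped pre1 and pre2.

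The log2 fold change of FAD3-2b at post was 2.12 against the secretory stage (SE 0.339, adjusted p = 0.000869) and 3.04 against pre2 (SE 0.339, adjusted p = 1.64e-06). Extrafloral nectaries were lower than leaf, with a log2 fold change of -3.90 (SE 0.293, adjusted p = 8.2e-09), and floral nectaries were higher than extrafloral ones by 5.26 (adjusted p = 1.96e-14). The rise at the secretory stage over pre1 (1.06, adjusted p = 0.0154) was lost without any 1 of pre1 library 2 and secretory library 3 (adjusted p from 0.0658 to 0.0795). Between stem and leaf EFN the change did not pass (1.17, adjusted p = 0.0502).

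FAD2-2, a microsomal omega-6 desaturase that makes linoleic acid, had 730, 320 and 301 at pre1, 81, 56 and 98 at pre2, 76, 45 and 66 at the secretory stage and 65, 180 and 164 at post. It had 1776, 1967 and 2854 in stem EFN and 2197, 2164 and 1420 in leaf EFN, against 1105, 2148 and 1450 in leaf. Every floral library was below every leaf and extrafloral library, and the pre1 libraries were above all other floral ones. FAD2-2 fell by 3.59 in floral nectaries against leaf (SE 0.303, adjusted p = 2.05e-09), fell by 4.01 against extrafloral nectaries (SE 0.235, adjusted p = 7.24e-12) and fell by 2.74 at the secretory stage against pre1 (SE 0.383, adjusted p = 1.27e-05). Post against the secretory stage did not pass (1.02, adjusted p = 0.14).

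The other omega-6 desaturase row, LOC100805040, may share reads with FAD2-2. It had 181, 91 and 87 at pre1, 30, 12 and 11 at pre2, 14, 12 and 4 at the secretory stage and 22, 53 and 35 at post. It had 186, 285 and 466 in stem EFN and 299, 257 and 84 in leaf EFN, against 110, 75 and 92 in leaf. It fell by 3.03 in floral against extrafloral nectaries (adjusted p = 4.27e-08) and fell by 3.52 at the secretory stage against pre1 (adjusted p = 2.33e-05). Its call at post over the secretory stage (1.84, adjusted p = 0.0429) was lost without any 1 of secretory libraries 2 and 3 and post libraries 2 and 3 (adjusted p from 0.0755 to 0.236), with a pseudocount of 10 (0.0829) and with no trend in the prior variance (0.0557), and its rise in extrafloral nectaries against leaf (1.34, adjusted p = 0.0197) was lost without leaf library 2 (adjusted p = 0.0758) and without stem EFN libraries 2 and 3 together (0.134).

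LOC100795628, related to Arabidopsis FAD4, which desaturates chloroplast phosphatidylglycerol, switched early in the floral series. It had 27, 16 and 72 at pre1, 652, 903 and 596 at pre2, 1262, 1405 and 1173 at the secretory stage and 914, 972 and 1083 at post. It had 154, 255 and 94 in stem EFN and 135, 127 and 74 in leaf EFN, against 360, 364 and 227 in leaf. The pre1 libraries were below all others, and the pre2, secretory and post libraries above all others. The fold change of the secretory stage over pre1 was 5.29 (SE 0.402, adjusted p = 8.38e-09), while floral nectaries as a whole against leaf did not pass (0.41, adjusted p = 0.248). Extrafloral nectaries were lower than leaf, with a log2 fold change of -1.25 (adjusted p = 0.00637).

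ACPD, the stearoyl-ACP desaturase that makes oleic acid, was lower after anthesis than before it. It had 896, 628 and 621 at pre1, 498, 506 and 607 at pre2, 278, 270 and 235 at the secretory stage and 287, 208 and 197 at post, against 828, 1153 and 776 in leaf. It fell by 1.43 at the secretory stage against pre1 (SE 0.198, adjusted p = 1.09e-05) and fell by 1.23 at post against pre2 (SE 0.198, adjusted p = 8.18e-05). The plastid omega-3 desaturase FAD7-1 fell by 1.13 in extrafloral nectaries against leaf (adjusted p = 0.00327), with 1149, 1972 and 837 in stem EFN and 1653, 1416 and 601 in leaf EFN against 2728, 3421 and 1834 in leaf, so library 2 of stem EFN overlapped leaf. Its floral values against leaf (-0.59, adjusted p = 0.0477) sat close to the threshold, and the call was lost without any 1 of leaf libraries 1 and 2, pre1 libraries 1 and 3, pre2 libraries 2 and 3, secretory libraries 1 and 3 and post libraries 1 and 3 (adjusted p from 0.0554 to 0.264) and with no trend in the prior variance (0.0598). FAD8-1, of the same family and chosen after its values were seen, did not pass in either comparison with leaf (adjusted p = 0.0711 for floral and 0.123 for extrafloral nectaries).

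A sphingolipid desaturase, LOC100781495, also chosen after its values were seen, was higher in floral than in extrafloral nectaries (1.50, adjusted p = 6.45e-07) and than in leaf (1.31, adjusted p = 8.35e-05). The carotenoid desaturases are listed with these enzymes only by name. Phytoene desaturase PDS1 averaged 256 ± 34.2 at pre1, 225 ± 8.02 at pre2, 121 ± 23.1 at the secretory stage and 110 ± 19.2 at post. It averaged 175 ± 45 in stem EFN and 183 ± 7.51 in leaf EFN, against 380 ± 66.1 in leaf. PDS1 fell by 1.18 in floral and fell by 1.09 in extrafloral nectaries against leaf (adjusted p = 1.32e-06 and 4.9e-05). These comparisons share the leaf libraries, which also held the highest photosystem and antenna sums given above.

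**Figure D3:**
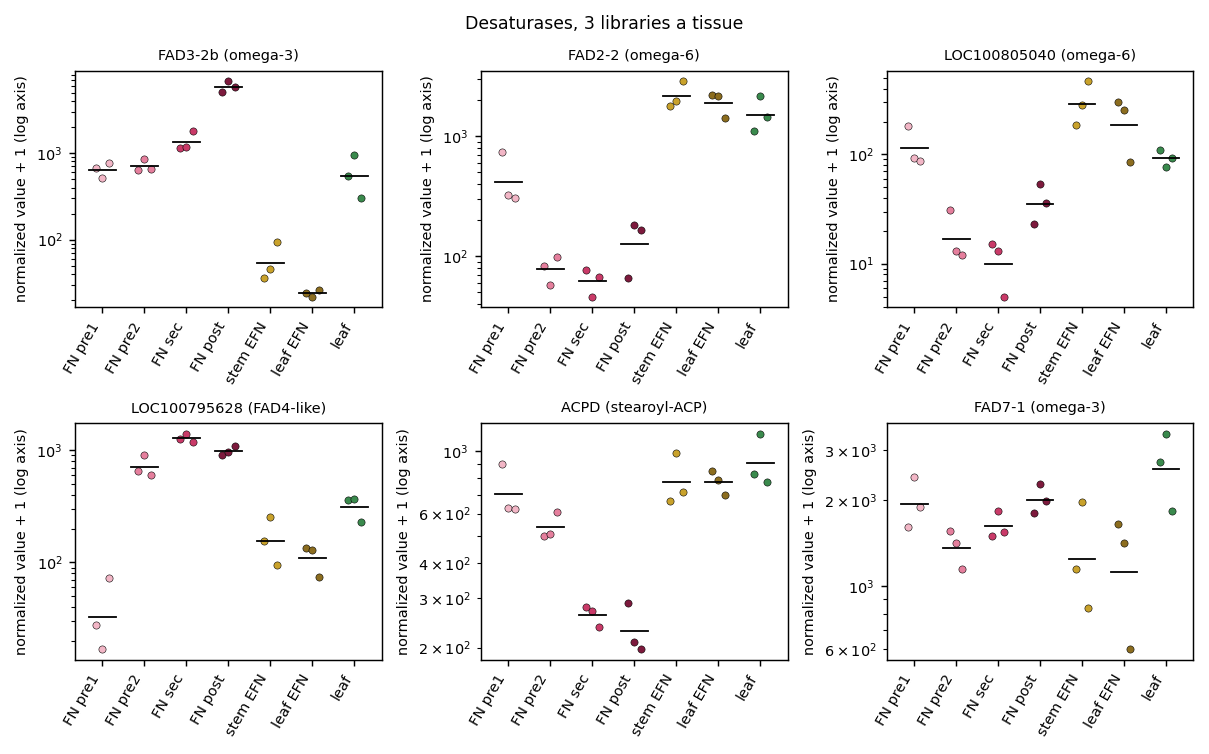
Normalized value + 1 (log axis) of 6 desaturases in each library (points, 3 a tissue), with the geometric mean of a tissue as a bar. FAD3-2b is highest at post (5028, 6730 and 5851) and lowest in both extrafloral nectaries, FAD2-2 and LOC100805040 are lowest at pre2 and the secretory stage, and LOC100795628 is lowest at pre1.

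Among the floral stages, the elongation members had their highest means at pre1. LOC100817128, which matches Arabidopsis ketoacyl reductase KCR1, the main ketoacyl reductase of very-long-chain fatty acid synthesis in Arabidopsis, had 1364, 1426 and 1210 at pre1, 739, 687 and 718 at pre2, 429, 415 and 510 at the secretory stage and 532, 432 and 304 at post. It had 116, 210 and 231 in stem EFN and 190, 155 and 168 in leaf EFN, against 122, 164 and 155 in leaf. All floral libraries were above all others, and the pre1 libraries above all other floral ones. KCR1 was higher in floral nectaries than in leaf by 2.14 (SE 0.177, adjusted p = 1.43e-09) and fell by 1.56 at the secretory stage against pre1 (SE 0.223, adjusted p = 1.61e-05). Its lower level at post than at pre2 (-0.79, adjusted p = 0.00872) was lost without post library 3 (adjusted p = 0.0692).

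LOC100785983, a ketoacyl-CoA synthase, which sets the length of the chains for wax, stood out in the stem EFN. It had 842, 497 and 800 at pre1, 311, 353 and 406 at pre2, 202, 204 and 257 at the secretory stage and 291, 296 and 423 at post. It had 1082, 1225 and 960 in stem EFN and 370, 229 and 538 in leaf EFN, against 283, 158 and 330 in leaf. The stem libraries were above all others, and the change over leaf EFN was 1.60 (SE 0.291, adjusted p = 0.00291). Extrafloral nectaries were higher than leaf by 1.34 (adjusted p = 0.000254). The secretory stage was lower than pre1, with a log2 fold change of -1.66 (adjusted p = 0.000139). Its call in floral nectaries over leaf (0.58, adjusted p = 0.0296) was lost without leaf library 2 (adjusted p = 0.344) and with values rescaled by median ratios (0.241). The other synthase, DDKCS, had at most 31 units in any library and was higher in floral nectaries than in leaf (1.45, adjusted p = 6.46e-05).

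Of 3 further elongase rows matched by locus, LOC100818356, of the PASTICCINO2 dehydratase type, averaged 195 ± 46.8 at pre1, 345 ± 26.8 at pre2, 134 ± 44.8 at the secretory stage and 82.3 ± 27.5 at post, against 53 ± 6.08 in leaf (1.60, adjusted p = 1.02e-06). It fell by 2.10 at post against pre2 (adjusted p = 6.09e-06). LOC100780327, of the enoyl reductase CER10 type, was lower in floral nectaries than in leaf (-1.20, adjusted p = 0.000135). The other row of the CER10 type, LOC100785393, did not pass in that comparison. KCR1 and the dehydratase were thus higher in floral nectaries than in leaf, and 1 CER10-type row was lower.

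The cutin and cuticle export list held 5 rows that are no members. Of these, 4 were higher and 0 lower in floral nectaries against leaf, against 48% and 27.8% of all rows. Their median was 2.34 against 0.38 over all rows. The lipid transfer proteins LOC100306706 and LOC100306062, of the LTP1 and LTP2 type of small secreted proteins, were among those higher. LOC100306706 averaged 2797 ± 782 at pre1, 2667 ± 522 at pre2, 3557 ± 487 at the secretory stage and 5767 ± 830 at post, against 81 ± 107 in leaf (6.56, SE 0.622, adjusted p = 1.14e-08). LOC100306062 averaged 1005 ± 491 at pre1 and 586 ± 154 at post against 0.667 ± 0.577 in leaf (8.75 on the log2(value + 1) scale, adjusted p = 2.82e-14). LOC100818246, of the GPAT4 acyltransferase type that makes cutin precursors, was higher in extrafloral nectaries than in leaf (1.76, adjusted p = 1.53e-05). Loci chosen as markers of epidermis and of pollen and tapetum matched 0 rows, so the share of these cell types was not measured.

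All 6 beta-oxidation rows were higher in floral nectaries than in leaf when the 4 stages were pooled, against 48% of all rows, with log2 fold changes from 0.65 to 2.91 and a median of 2.17, against 0.38 over all rows. In 5 of the 6 no floral library overlapped leaf, against 2886 of all 6351 rows tested that were called without overlap. The exception, ACX1;2, was above leaf only before anthesis. Among the floral stages, the ACX1 oxidases were highest at pre1, while ACX4 and the dehydrogenase were higher at the secretory stage than at pre1. In extrafloral nectaries against leaf, 4 of 6 were higher and 0 lower, against 28.9% and 18.5% of all rows, with a median of 0.56 against 0.13 over all rows.

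ACX1;1, an oxidase for long chains that also serves jasmonate synthesis in Arabidopsis, had 1100, 1547 and 1194 at pre1, 675, 450 and 461 at pre2, 261, 257 and 267 at the secretory stage and 312, 287 and 335 at post. It had 273, 442 and 249 in stem EFN and 366, 360 and 218 in leaf EFN, against 205, 211 and 217 in leaf. The pre1 libraries were above all others, and every floral library was above every leaf library. ACX1;1 fell by 2.27 at the secretory stage against pre1 (SE 0.222, adjusted p = 1.67e-07). ACX1;2, a close copy that may share its reads, had 526, 586 and 503 at pre1, 399, 327 and 429 at pre2, 137, 171 and 158 at the secretory stage and 183, 137 and 119 at post, against 185, 151 and 161 in leaf. Its pre1 and pre2 libraries were above leaf, and its secretory and post libraries overlapped leaf. At the secretory stage against pre1 it fell by 1.79 (adjusted p = 4.87e-07), and fell by 1.40 at post against pre2 (adjusted p = 1.4e-05). ACX1;2 was higher in extrafloral nectaries than in leaf, with 302, 349 and 214 in stem EFN and 324, 272 and 338 in leaf EFN against 185, 151 and 161 in leaf (0.84, adjusted p = 0.000396). The call of ACX1;1 in that comparison (0.55, adjusted p = 0.0256) was lost without any 1 of leaf EFN libraries 1 and 2, stem EFN library 2 and leaf libraries 1, 2 and 3 (adjusted p from 0.0507 to 0.0755), in a fit to only the groups compared (0.0824) and without stem EFN libraries 2 and 3 together (0.082).

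ACX4-like LOC100125585, an oxidase for short chains, ran opposite to the ACX1 rows among the floral stages. It had 491, 510 and 575 at pre1, 959, 959 and 966 at pre2, 1066, 1012 and 1287 at the secretory stage and 1078, 1040 and 984 at post. It had 293, 316 and 207 in stem EFN and 343, 419 and 398 in leaf EFN, against 264, 180 and 288 in leaf. Its secretory libraries were all above pre1 (1.09, SE 0.176, adjusted p = 6.1e-05), and all floral libraries were above the others (1.86 against leaf, adjusted p = 3.48e-10). Its call in extrafloral nectaries over leaf (0.42, adjusted p = 0.0288) was lost without any 1 of leaf EFN library 2, stem EFN libraries 1 and 2 and leaf library 2 (adjusted p from 0.0508 to 0.254), with values rescaled by median ratios (0.0788) and in a fit to only the groups compared (0.125).

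LOC100170753, a peroxisomal hydroxyacyl-CoA dehydrogenase, had 450, 484 and 528 at pre1, 1204, 1222 and 534 at pre2, 1135, 979 and 1583 at the secretory stage and 1107, 1785 and 1568 at post. It had 219, 202 and 214 in stem EFN and 261, 186 and 90 in leaf EFN, against 129, 106 and 140 in leaf. All floral libraries were above the others, with changes of 2.91 over leaf (SE 0.258, adjusted p = 4.23e-09) and 1.31 at the secretory stage over pre1 (adjusted p = 0.003). The thiolase LOC100807194, which cuts off the shortened chain as the last step, had 1513, 2269 and 2768 at pre1, 3145, 2844 and 2674 at pre2, 2708, 2572 and 3010 at the secretory stage and 3022, 2806 and 2704 at post. It had 683, 908 and 714 in stem EFN and 963, 920 and 529 in leaf EFN, against 399, 378 and 306 in leaf. It was higher in floral nectaries than in leaf by 2.87 (SE 0.174, adjusted p = 1.66e-11) and in extrafloral nectaries by 1.10 (adjusted p = 0.000122), with no overlap between either and leaf, and the test among the floral stages did not pass (adjusted p = 0.238).

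The wider list of beta-oxidation and glyoxylate cycle genes held 7 rows that are no members. In floral nectaries against leaf 3 were higher and 1 lower, against 48% and 27.8% of all rows. Their median was 0.36 against 0.38 over all rows. LOC100805556, a peroxisomal citrate synthase, was higher (1.95, adjusted p = 1.42e-09). LOC100799793, a peroxisomal malate dehydrogenase, was lower, with 684 ± 134 at pre1, 599 ± 47.1 at pre2, 222 ± 25.5 at the secretory stage and 238 ± 21.9 at post against 2523 ± 914 in leaf (-2.66, adjusted p = 3.31e-11). LOC100796728, of the OPCL1 type that prepares jasmonate precursors for beta-oxidation, was higher in extrafloral nectaries than in leaf (1.87, adjusted p = 8.05e-07), with 204 ± 49.1 in stem EFN and 257 ± 36.1 in leaf EFN against 62.7 ± 17.6 in leaf. At post against pre2, 4 of the 7 were lower and 0 higher, against 20.1% and 18.1% of all rows.

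**Figure D4:**
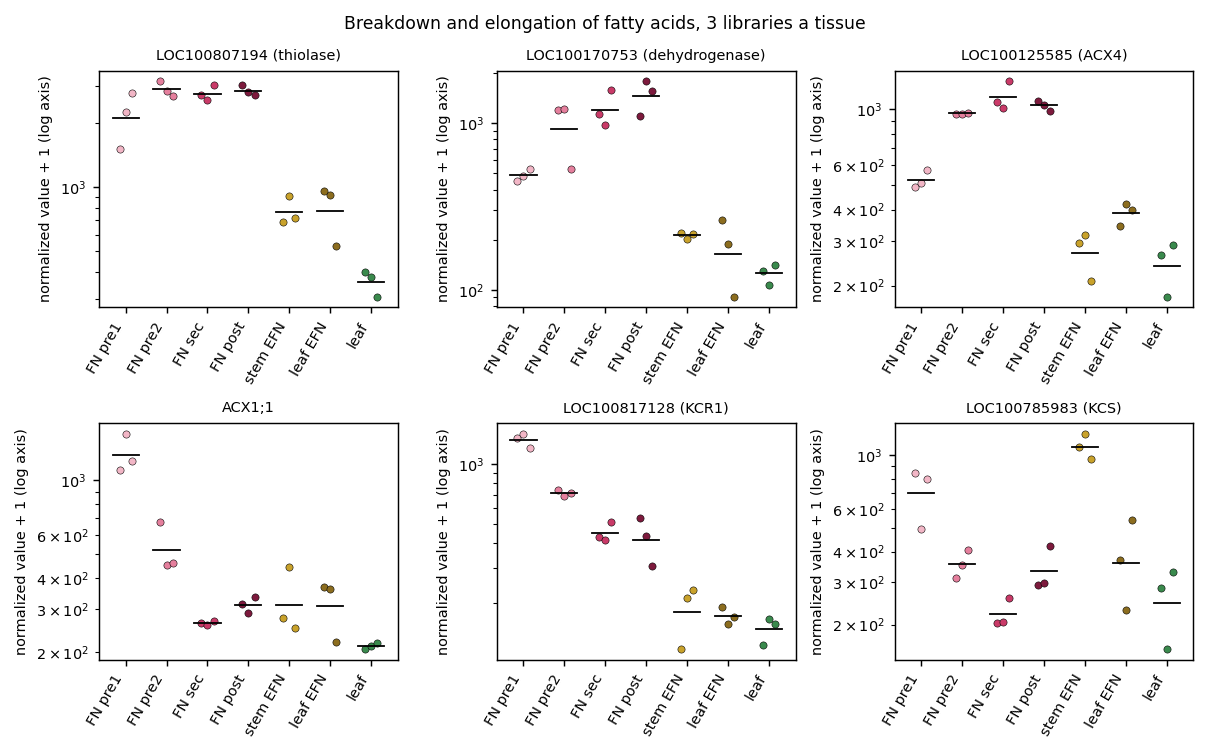
Normalized value + 1 (log axis) of 4 beta-oxidation members and 2 elongation members in each library (points, 3 a tissue), with the geometric mean of a tissue as a bar. ACX1;1 and LOC100817128 are highest at pre1, the thiolase LOC100807194 is higher at every floral stage than in leaf, and LOC100785983 is highest in stem EFN.

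The acyl-CoA handling class holds 16 rows, but 9 of them are the N-acyltransferases noted above as outside lipid metabolism. Of the 16, 5 were higher and 2 lower in floral nectaries against leaf, against 48% and 27.8% of all rows. The median was 0.11 against 0.38 over all rows, so these figures do not describe lipid rows alone. LOC100301904, the peroxisomal acyl-CoA synthetase that readies chains for beta-oxidation, had 825, 1132 and 1113 at pre1, 1153, 1113 and 971 at pre2, 969, 1103 and 1127 at the secretory stage and 1225, 1009 and 826 at post. It had 426, 480 and 384 in stem EFN and 488, 475 and 277 in leaf EFN, against 459, 382 and 424 in leaf. All floral libraries were above all others (1.30 against leaf, SE 0.157, adjusted p = 3.49e-07), and extrafloral nectaries against leaf did not pass (-0.02, adjusted p = 0.932). LOC100803126, a long-chain acyl-CoA synthetase of the LACS9 type, was higher in floral nectaries by 1.83 (adjusted p = 3.31e-08) and lower at post than at pre2, with a log2 fold change of -1.08 (adjusted p = 0.00136).

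The ACBP3-like acyl-CoA-binding protein LOC100794328 was higher at the secretory and post stages than before anthesis, with overlap between pre1 and pre2 and between the secretory and post stages. It had 95, 238 and 151 at pre1, 255, 240 and 233 at pre2, 1017, 1022 and 641 at the secretory stage and 736, 1195 and 1137 at post. It had 9, 45 and 31 in stem EFN and 37, 36 and 61 in leaf EFN, against 25, 9 and 3 in leaf. Secretory and post libraries were all above pre1 and pre2, and all floral libraries were above the rest. The changes were 5.39 in floral nectaries over leaf (SE 0.433, adjusted p = 1e-09), 2.53 at the secretory stage over pre1 (adjusted p = 0.000943) and 2.04 at post over pre2 (adjusted p = 0.00635). The value over leaf was 6.07 without leaf library 1 and 4.72 without leaf library 3. The call in extrafloral nectaries over leaf (1.70, adjusted p = 0.00646) was lost without leaf library 3 (adjusted p = 0.0789) and without stem EFN libraries 2 and 3 together (0.0952), and its value was 2.38 without leaf library 1.

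ACBP6-like LOC100500327, a cytosolic carrier, averaged 3437 ± 733 at pre1, 3100 ± 321 at pre2, 1962 ± 204 at the secretory stage and 2311 ± 489 at post. It averaged 1344 ± 359 in stem EFN and 1094 ± 330 in leaf EFN, against 1712 ± 348 in leaf. Floral nectaries were higher than extrafloral ones (1.15, adjusted p = 1.12e-06). Its call over leaf (0.63, adjusted p = 0.00742) was lost without leaf library 1 (adjusted p = 0.0821) and with values rescaled by median ratios (0.0877). The N-acyltransferase rows went separate ways: LOC100816118 had at most 117 in floral libraries, against 551 to 677 in leaf (-2.70 in floral nectaries against leaf, adjusted p = 1.72e-11), and fell by 1.69 in extrafloral nectaries (adjusted p = 5.58e-07). LOC100527055, in contrast, had 220 to 314 at pre2 and the secretory stage, against 3 to 8 in leaf (4.71 over the 4 floral stages against leaf, adjusted p = 2.11e-12). It was also higher at the secretory stage than at pre1, by 2.75, and in extrafloral nectaries than in leaf, by 2.45. LOC100306394, of the same superfamily, was lower at post than at pre2, with a log2 fold change of -0.90 (adjusted p = 0.00524). The IDM1-like LOC100802562 fell by 0.88 in extrafloral nectaries against leaf (adjusted p = 0.000266), and LOC100806790, of the MAK3 type, rose by 1.13 (adjusted p = 4.13e-05).

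GDSL lipases are a large plant family of secreted esterases, some of which polymerize cutin. Of 6 rows, which include the channel-like LOC100796574, 3 were higher and 1 lower in floral nectaries against leaf, against 48% and 27.8% of all rows. In extrafloral nectaries against leaf 2 were higher and 1 lower, against 28.9% and 18.5% of all rows. LOC100783310 was highest at post, while LOC100809260 was highest in the stem EFN. LOC100783310 had 25, 44 and 46 at pre1, 114, 162 and 160 at pre2, 398, 426 and 360 at the secretory stage and 502, 779 and 898 at post. It had 1, 4 and 5 in stem EFN and 14, 4 and 10 in leaf EFN, against 7, 5 and 4 in leaf. The 4 floral stages did not overlap with each other, and all floral libraries were above the others. The changes were 4.99 in floral nectaries over leaf (SE 0.325, adjusted p = 4.4e-11), 3.38 at the secretory stage over pre1 (SE 0.411, adjusted p = 2.6e-06) and 2.29 at post over pre2 (adjusted p = 0.000242). Post against the secretory stage did not pass (0.84, adjusted p = 0.284).

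LOC100809260 had 4, 7 and 12 at pre1, 15, 24 and 15 at pre2, 20, 16 and 16 at the secretory stage and 15, 15 and 12 at post. It had 131, 192 and 225 in stem EFN and 51, 45 and 72 in leaf EFN, against 20, 8 and 14 in leaf. Each extrafloral library was above all leaf and floral libraries, and the changes were 2.82 in extrafloral nectaries over leaf (SE 0.313, adjusted p = 9.06e-07) and -2.82 in floral against extrafloral nectaries (SE 0.221, adjusted p = 6.06e-10). The stem EFN was higher than the leaf EFN (1.68, adjusted p = 0.0105), a call that was lost without leaf EFN library 2 (adjusted p = 0.0678) and without stem EFN libraries 2 and 3 together (0.167). LOC100815273, an APG-like GDSL lipase, had 153, 555 and 211 in stem EFN against 64, 58 and 32 in leaf EFN (2.39, adjusted p = 0.045). That call was lost without any 1 of leaf EFN libraries 1, 2 and 3 and stem EFN libraries 1 and 2 (adjusted p from 0.06 to 0.176), with no trend in the prior variance (0.0615), with the replicate block (0.053), in a fit to only the groups compared (0.0507) and without stem EFN libraries 2 and 3 together (0.326). LOC100796574, the channel-like row, was higher in floral than in extrafloral nectaries (1.30, adjusted p = 1.05e-05).

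Of 5 other lipases, 2 were higher and 0 lower at the secretory stage than at pre1, against 25.2% and 20.7% of all rows. At post against pre2, 3 were higher and 0 lower, against 18.1% and 20.1% of all rows. LOC100790742 and LOC100775444 were called higher in both comparisons. LOC100790742 matches Arabidopsis MPL1, a lipase induced by aphid feeding. It had 42, 27 and 30 at pre1, 36, 33 and 36 at pre2, 434, 476 and 321 at the secretory stage and 653, 1110 and 1081 at post. It had 28, 35 and 73 in stem EFN and 71, 84 and 129 in leaf EFN, against 7, 17 and 1 in leaf. Values were 27 to 42 at both stages before anthesis and at least 321 from anthesis on, with no overlap. The changes were 3.60 at the secretory stage over pre1 (SE 0.525, adjusted p = 2.01e-05) and 4.68 at post over pre2 (SE 0.525, adjusted p = 1.71e-06). Extrafloral nectaries were higher than leaf by 3.25 (adjusted p = 1.29e-05), a value that was 3.97 without leaf library 2 and 2.39 without leaf library 3.

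LOC100775444 matches an Arabidopsis plastid acyltransferase that makes phytyl esters when chlorophyll is broken down. It had 61, 66 and 87 at pre1, 148, 164 and 186 at pre2, 418, 369 and 452 at the secretory stage and 524, 689 and 586 at post. It had 275, 227 and 118 in stem EFN and 127, 96 and 93 in leaf EFN, against 289, 335 and 423 in leaf. The secretory and post libraries were above pre1 and pre2, with changes of 2.53 at the secretory stage over pre1 (SE 0.247, adjusted p = 1.62e-07) and 1.84 at post over pre2 (adjusted p = 1.2e-05). Extrafloral nectaries fell by 1.27 against leaf (adjusted p = 8.95e-05). The call of the stem EFN over the leaf EFN (0.89, adjusted p = 0.0409) was lost without any 1 of leaf EFN libraries 2 and 3 and stem EFN libraries 1 and 2 (adjusted p from 0.0947 to 0.197), with no trend in the prior variance (0.0541), with the replicate block (0.0602) and in a fit to only the groups compared (0.243).

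The triacylglycerol lipase LOC100803830 separated nectary types. It had 167, 161 and 158 at pre1, 118, 146 and 114 at pre2, 169, 198 and 175 at the secretory stage and 163, 234 and 210 at post. It had 742, 640 and 616 in stem EFN and 380, 339 and 327 in leaf EFN, against 413, 242 and 327 in leaf. Stem EFN libraries were above all others, floral libraries were below all others, and leaf overlapped leaf EFN. Within the floral series, every post library was above every pre2 library. It fell by 0.95 in floral nectaries against leaf (SE 0.143, adjusted p = 5.83e-06) and rose by 0.93 in stem against leaf EFN (adjusted p = 0.00497). LOC100800778, described only as a lipase with a domain of unknown function, had 303 to 442 in floral libraries, 73 to 103 in extrafloral ones and 146 to 181 in leaf. It was higher in floral nectaries than in leaf by 1.15 (adjusted p = 2.38e-07) and lower in extrafloral nectaries than in leaf, with a log2 fold change of -0.81 (adjusted p = 0.000193).

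Phospholipases cut membrane lipids and give rise to signals such as phosphatidic acid and diacylglycerol. In extrafloral nectaries against leaf, 6 of 12 rows were higher and 1 lower, against 28.9% and 18.5% of all rows, with a median of 0.71 against 0.13. In floral nectaries against leaf, 5 were higher and 3 lower, against 48% and 27.8% of all rows. At post against pre2, 4 of 12 were higher and 0 lower, against 18.1% and 20.1% of all rows.

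LOC100784534, which matches Arabidopsis PLC2, a phospholipase C that splits phosphoinositides, had 5, 0 and 12 at pre1, 25, 32 and 24 at pre2, 124, 107 and 91 at the secretory stage and 87, 184 and 237 at post. It had 103, 103 and 119 in stem EFN and 158, 171 and 170 in leaf EFN, against 35, 22 and 14 in leaf. The pre1, pre2 and secretory libraries did not overlap with each other, and every extrafloral library was above every leaf library. The changes were 4.65 at the secretory stage over pre1 (SE 0.594, adjusted p = 4.53e-06), 2.50 at post over pre2 (adjusted p = 0.00265) and 2.54 in extrafloral nectaries over leaf (adjusted p = 0.000509). Values at pre1 were 0 to 12, so the first of these rests on few reads. It was 3.61 without pre1 library 2 and 5.46 without pre1 library 3.

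Another row with the same Arabidopsis match, LOC547864, had a different pattern. It averaged 78 ± 17.3 at pre1, 46.7 ± 9.24 at pre2, 57.3 ± 22.8 at the secretory stage and 59 ± 17.6 at post. It averaged 258 ± 24.8 in stem EFN and 272 ± 38.4 in leaf EFN, against 157 ± 31.9 in leaf, and fell by 1.41 in floral nectaries against leaf (SE 0.22, adjusted p = 9.89e-06). Its rise in extrafloral nectaries (0.77, adjusted p = 0.0139) was lost without leaf library 1 (adjusted p = 0.0774) and without stem EFN libraries 2 and 3 together (0.056). A further row with this match, LOC547865, chosen after its values were seen, was higher in both kinds of nectary than in leaf. The changes were 1.48 in floral and 1.77 in extrafloral nectaries, and 0.87 and 0.98 with a pseudocount of 10. LOC547865 was also higher at post than at pre2, by 2.48, and by 1.55 with that pseudocount. Like LOC547864, the transcript LOC100786997_XM_003552310.3, of the PLC6 type, was lower in floral nectaries than in leaf (-0.98, adjusted p = 0.000241). It was higher in extrafloral nectaries than in leaf (0.91, adjusted p = 0.00262). Another row of the same gene, LOC100786997_XM_006601889.2, chosen after its values were seen, was called higher in floral nectaries than in leaf. That call was lost without leaf library 2 (0.88, adjusted p = 0.135) and without leaf library 3 (1.17, adjusted p = 0.0577).

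The phospholipase D row LOC100801286, described in soybean as a gamma form and first matched to Arabidopsis PLD alpha, an enzyme that makes phosphatidic acid, had 2981, 2257 and 2088 at pre1, 1484, 1307 and 1485 at pre2, 1110, 1297 and 1123 at the secretory stage and 1294, 1173 and 1124 at post. It had 794, 1150 and 882 in stem EFN and 1145, 1171 and 874 in leaf EFN, against 698, 545 and 652 in leaf. All nectary libraries of both kinds were above all leaf libraries, and pre1 was above everything else. It was higher in floral nectaries by 1.24 (SE 0.135, adjusted p = 8.45e-08) and in extrafloral nectaries by 0.66 (SE 0.148, adjusted p = 0.0013), and fell by 1.04 at the secretory stage against pre1 (adjusted p = 6.98e-05).

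Both patatin-like rows described here were higher late in the floral series than early in it. LOC100816093, of the SDP1 type that starts the breakdown of stored oil, had 131, 178 and 133 at pre1, 144, 137 and 106 at pre2, 308, 298 and 229 at the secretory stage and 302, 564 and 562 at post, against 144, 135 and 71 in leaf. The post libraries were all above pre2 (1.83, SE 0.296, adjusted p = 8.64e-05). The call of the secretory stage over pre1 (0.92, adjusted p = 0.0167) was lost without any 1 of pre1 libraries 1 and 3 and secretory libraries 1 and 2 (adjusted p from 0.0504 to 0.0596). LOC100791820 averaged 116 ± 24 at pre1, 228 ± 31.2 at pre2, 496 ± 8.72 at the secretory stage and 453 ± 35.5 at post, and was higher at the secretory stage than at pre1 by 2.10 (SE 0.256, adjusted p = 2.62e-06). The PEARLI 4 family row LOC100811116, named a phospholipase only by its description, was higher in extrafloral nectaries than in leaf by 1.69 (adjusted p = 2.94e-05). Non-specific phospholipase C1, LOC100813744, did not pass among the floral stages (adjusted p = 0.379) or in floral nectaries against leaf (-0.28, adjusted p = 0.11).

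**Figure D5:**
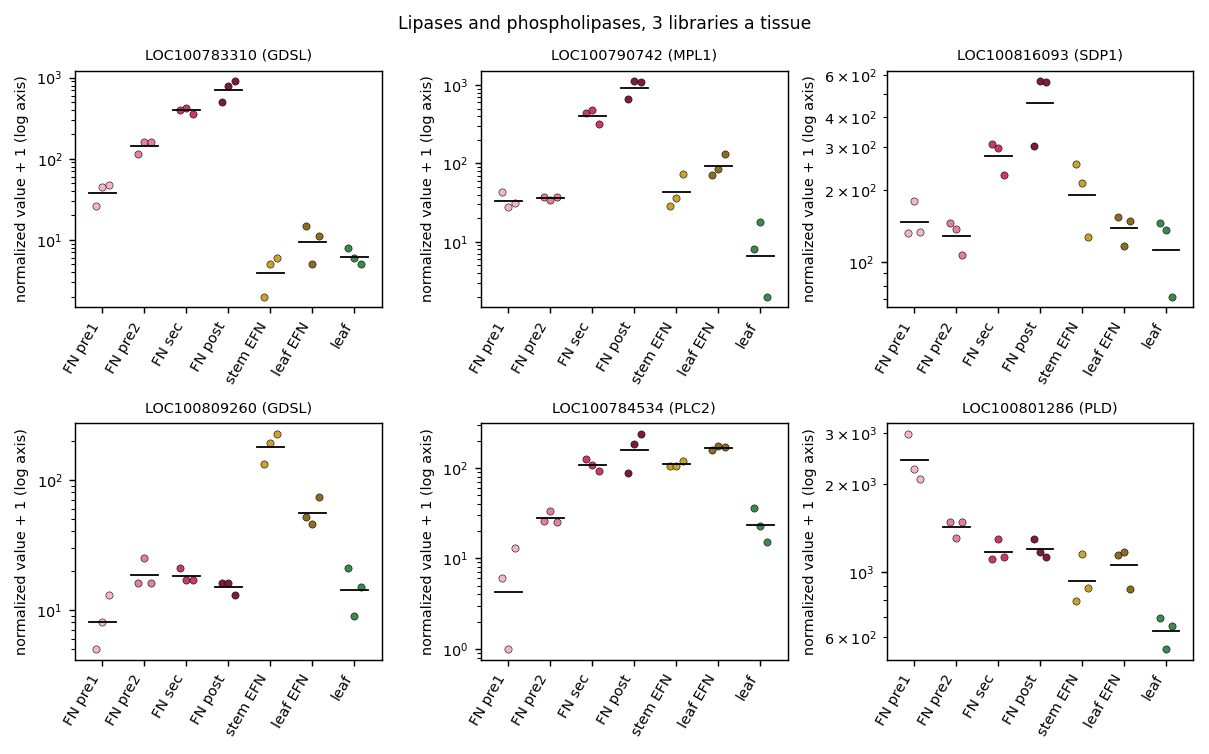
Normalized value + 1 (log axis) of 2 GDSL lipases, 1 other lipase and 3 rows of the phospholipase class in each library (points, 3 a tissue), with the geometric mean of a tissue as a bar. The phospholipase class rows are LOC100816093, LOC100784534 and LOC100801286. LOC100783310, LOC100790742 and LOC100816093 are highest at post, LOC100809260 is highest in stem EFN, and LOC100801286 is highest at pre1.

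Genes that build glycerolipids, none of them members, were matched to 7 rows. In extrafloral nectaries against leaf 5 of 7 were lower and 0 higher, against 18.5% and 28.9% of all rows. Their median was -0.76 against 0.13 over all rows. DGD1, which makes the chloroplast galactolipid that carries much of the linolenic acid of leaves, averaged 627 ± 103 in stem EFN and 403 ± 109 in leaf EFN against 1177 ± 412 in leaf (-1.19, SE 0.211, adjusted p = 0.000147). The DGAT2-type LOC100784657, for the last step of oil synthesis, averaged 971 ± 126 at pre1, 1112 ± 297 at pre2, 1420 ± 174 at the secretory stage and 339 ± 27 at post, against 214 ± 68.1 in leaf. It was higher in floral nectaries than in leaf (2.03, adjusted p = 3.78e-09) and fell by 2.06 at post against the secretory stage (SE 0.225, adjusted p = 2.29e-05).

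The lipase-like regulators PAD4, EDS1 and SAG101 act in defence and senescence. Of their 3 rows, 2 were higher and 0 lower in extrafloral nectaries against leaf, against 28.9% and 18.5% of all rows. PAD4 averaged 522 ± 109 in stem EFN and 534 ± 78.4 in leaf EFN against 256 ± 54.1 in leaf (1.05, adjusted p = 0.000566). At post against pre2, 3 of 3 were higher, against 18.1% of all rows. The changes included 1.31 for PAD4 (adjusted p = 0.000379) and 1.09 for the SAG101-like LOC100797620 (adjusted p = 0.000544).

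Stem and leaf EFN differed in few members. Of the 5 calls, LOC100785983 and LOC100803830 passed under every alternative tried, while LOC100809260, LOC100815273 and LOC100775444 did not. The stem EFN libraries also held more photosystem and antenna transcripts, with 10 of 11 rows higher than in leaf EFN and a median of 1.65. Of the 7 nectary and floral identity rows, 3 were higher, at the low sums given above, against 6787 to 29635 in floral libraries. Over all rows, 2.8% were higher. These 2 lists also differed between the nectary sites. Their part in these 5 calls was not tested.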

How the data were processed

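RNA was sequenced as 50 bp paired-end reads, pooled over both lanes, per the labels' protocols. The authors deposited upper-quartile normalized counts per soybean transcript, rounded to whole numbers, which are treated here as a score and not as raw counts, so no count test was run. DESeq is named without a version or role in the submitters' processing notes, and the mapper is not given in the sources used here. Sequencing depth is unknown, since library sums are of normalized values.

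Of 6359 rows, the 6351 whose mean reached 1 were fitted as log2(value + 1) with limma 3.58.1 (R 4.3.3, lmFit and eBayes with a trend), all 21 libraries and 7 groups in 1 fit. P-values were adjusted over all rows by the Benjamini-Hochberg method, and the script was tested on simulated data. On this scale a fold change understates the change of low rows. Members and pathway lists were chosen with earlier results of these data known. Members named are those with the 6 largest increases and decreases that passed without overlap and with a higher-side mean of at least 100 in each comparison, and the 4 of highest mean in each role class. Exceptions are marked. Alternatives were another pseudocount, filter, scaling, prior variance, set of groups and replicate block, and leaving out libraries.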

Additional observations from a re-analysis of the deposited data

Results flagged for a closer look

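Members whose calls against leaf had opposite directions in floral and extrafloral nectaries are given here as a description. The comparisons share the leaf libraries, and the difference between floral and extrafloral nectaries is the first value minus the second, so this choice of members fixed its direction and it is no further test. FAD3-2b had log2 fold changes over leaf of 1.35 in floral and -3.90 in extrafloral nectaries, a difference of 5.26. The uncharacterized lipase LOC100800778 had 1.15 in floral and -0.81 in extrafloral nectaries, a difference of 1.96.

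The other members ran the other way. LOC100805040 (omega-6 desaturase) had -1.68 in floral and 1.34 in extrafloral nectaries, a difference of -3.03. For LOC547864 (phospholipase C) the values were -1.41 in floral and 0.77 in extrafloral nectaries, a difference of -2.17. For LOC100786997_XM_003552310.3 (phospholipase C) they were -0.98 in floral and 0.91 in extrafloral nectaries, a difference of -1.89. Another row of that gene was called higher in floral nectaries than in leaf, as given above. The acyl carrier protein LOC100784363 had -1.05 in floral and 0.69 in extrafloral nectaries, a difference of -1.73. The lipase LOC100803830 had -0.95 in floral and 0.59 in extrafloral nectaries, a difference of -1.54. The calls in extrafloral nectaries against leaf were lost under some alternatives for LOC100805040, LOC547864, LOC100784363 and LOC100803830.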

How the results depend on the processing

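Of 243 member calls over the 8 comparisons, 184 passed under every alternative, 59 were lost under at least 1 and 0 reversed. For genes outside the members, calls of single genes were not followed under the alternatives. Counts per list were recomputed but are not given here. For the 5 members higher in stem than in leaf EFN, the replicate block gave 3, a fit to only the groups compared 3, and leaving out 1 library 2 to 8. For the 0 lower, leaving out 1 library gave 0 to 1, and leaving out stem EFN libraries 2 and 3 together, added after seeing the data, gave 1. The 11 members higher at post than at pre2 became 18 in a fit to only the groups compared. The 2 higher at post than at the secretory stage became 4 with a pseudocount of 10, 1 with no trend in the prior variance, 6 with only the groups compared and 1 to 4 without 1 library. The 0 lower became 1 with only the groups compared and 0 to 2 without 1 library. The causes were not tested. A pseudocount of 10 moved folds of low rows by over 1.5 times while the calls were kept: in floral nectaries against leaf to 0.79 for DDKCS, 3.05 for LOC100306095, 3.48 for LOC100527055, 3.81 for LOC100783310 and 4.41 for LOC100794328. In extrafloral nectaries against leaf it gave 2.09 for LOC100790742, 1.08 for LOC100794328 and 2.24 for LOC100809260, in floral against extrafloral nectaries -2.23 for LOC100809260, and at the secretory stage against pre1 2.97 for LOC100784534 and -2.66 for LOC100805040. Other member counts stayed within 1.5 times. Rescaling by median ratios moved the median over all rows from 0.38 to 0.11 in floral nectaries against leaf and from 0.13 to 0.0038 in extrafloral nectaries against leaf. No pairing of libraries by replicate number was seen: the mean correlation of same-numbered deviations was -0.019 over 63 pairs. Of these pairs, 5 were over 0.1, and 3 of 21 libraries were closest to their own number. Such a check cannot show that the libraries were unpaired. Depth is unknown and groups of 3 limit the precision.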
